A study of Mus musculus with 12 samples.

Results

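The genes described are 45 components of the TGF-beta and BMP signalling pathways, picked by gene symbol from a table of 24537 mouse genes: 14 ligands, the protease Bmp1, 11 receptors, 8 Smads, 7 secreted or membrane antagonists and the 4 Id genes. Every one of the 45 was found. They were read in 12 RNA sequencing libraries of cultured cells, 3 in each of 4 groups. Per the labels, each group has 1 library from each of 3 mice of the strain Pdgfra-creERxLSL-tdTomato, in which the Pdgfra promoter drives an inducible Cre and the Cre switches on a red reporter, so all groups carry both alleles. The adipose-derived stromal cells (ADSCs) are Pdgfra-positive cells cultured from subcutaneous adipose tissue in DMEM with 10% FBS. In vitro iSEPs, induced stratified epithelial progenitors, are epithelial cells made from such ADSCs in culture. In vivo iSEPs were converted inside the animal and then cultured from the epithelial tissue that formed. Keratinocytes were cultured from back skin. The last 3 groups grew in a keratinocyte medium without serum, so in every comparison against ADSCs cell type and medium cannot be told apart. The labels give neither the age of the mice nor the agents used for the conversion.

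Ligands of this family bind a pair of receptor kinases, in which the type II receptor phosphorylates the type I receptor. TGF-beta and activin signal mainly through Smad2 and Smad3, BMPs through Smad1, Smad5 and Smad9, and both branches share Smad4 on the way to the nucleus. Smad6 and Smad7 are inhibitory Smads, and Id genes are classical early targets of BMP signalling. In skin, TGF-beta halts the proliferation of keratinocytes and drives matrix production in fibroblasts, while BMPs and their antagonists govern the hair cycle and epidermal differentiation.

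Levels are FPKM, fragments per kilobase of transcript scaled to library depth, and libraries are always given in the order mouse 1, mouse 2, mouse 3. Depth, read from the low values, was 21010000 to 27760000 reads in the genes of the table, of which 10845 to 11349 were at or above 1 FPKM in a library. All 8 keratinocyte markers checked were at or above 1 FPKM in all libraries of keratinocytes and of both iSEP groups, and 7 of 8 stromal markers were so in ADSCs. The summed stromal markers were 4680 to 6100 FPKM in ADSCs, 83.8 to 228 in in vitro iSEPs, 28.7 to 172 in the in vivo iSEPs and 38.8 to 46.3 in keratinocytes. Summed over 4 Y-linked genes, libraries of mouse 1 had 0.038 FPKM or less, and they alone had Xist above 0.02 FPKM. By these genes mouse 1 reads as female, and mice 2 and 3 as male in all libraries but 1, given next. Mouse 1 and sex therefore cannot be told apart. After the values were seen, 3 libraries stood apart. The in vitro iSEPs of mouse 3 had 0.334 FPKM summed over 4 Y-linked genes, against 40.1 to 61.1 in the other 7 libraries labelled mouse 2 or 3, and 0.016 FPKM of Xist, against 28.7 to 43.8 in the libraries of mouse 1, so it matches neither pattern of the other libraries. The in vivo iSEPs of mouse 3 had the group's highest stromal sum, 172 FPKM against 28.7 and 50.7, and a sum of simple epithelial keratins of 249 FPKM against 9.16 and 14.7. The ADSCs of mouse 2 had a summed level of 6 immune markers of 61.7 FPKM, against 5.96 and 9.62 in the other ADSC libraries, with Lyz2 at 50.5, 4.54 and 7.93 FPKM in ADSCs of mouse 2, 1 and 3. The part of these in the results was not tested. Calls of members that changed without any of the 3 libraries are named beside the results.

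ADSCs transcribed most of the pathway. The 3 epithelial cultures had most receptors and the central Smads above the threshold below. Several ligands, receptors, antagonists and Id genes were lower there than in ADSCs, as was Smad3 in both iSEP groups. With a threshold of 1 FPKM in all 3 libraries of a group, 34 of the 45 members were present in ADSCs, 29 in in vitro iSEPs, 28 in the in vivo iSEPs and 29 in keratinocytes, and 25 were at or above 1 FPKM in all 12 libraries. By role, ADSCs had 7 of 14 ligands and each epithelial group had 5. All 4 groups had 9 or 10 of 11 receptors. A filter on low values (1 FPKM or more in 3 or more libraries) left 37 members for testing. The other 8, Bmp2, Bmp4, Bmp5, Gdf5, Gdf10, Acvr2b, Smad9 and Chrd, were tested in a fit without the filter alone, and 5 members (Gdf6, Gdf15, Smad6, Bambi and Id4) passed the filter through ADSCs alone.

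**Figure D1:**
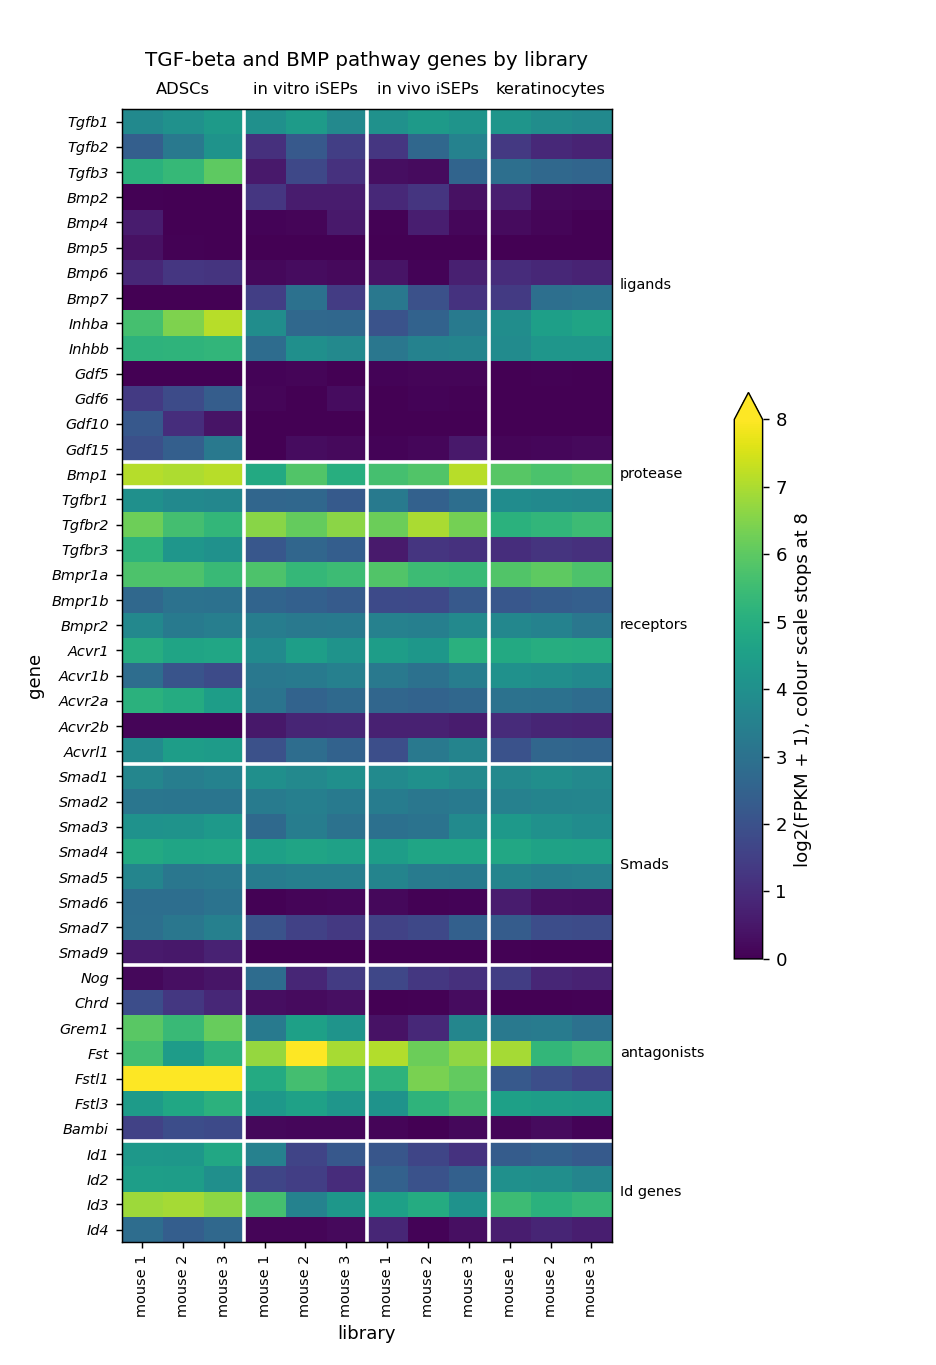
Heat map of log2(FPKM + 1) for the 45 members (rows, ordered by role) in the 12 libraries (columns, 3 per group). The colour scale stops at 8, and ADSCs have the most filled rows, with 34 members at or above 1 FPKM in all 3 libraries.

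Changes were tested with limma on log2(FPKM + 1), and a member is called at a Benjamini-Hochberg adjusted p below 0.05 over all 12364 genes kept. In keratinocytes against ADSCs 3 members were called higher and 19 lower, where 32.8% of all genes tested were higher and 20.7% lower. In in vitro iSEPs against ADSCs 6 were higher and 24 lower, against a background of 32.1% higher and 21.7% lower. In in vivo iSEPs against ADSCs 4 were higher and 21 lower, against 27.6% and 20.0%. As shares of all 45 members, the lower calls came to 42.2%, 53.3% and 46.7%, and the higher calls to 6.67%, 13.3% and 8.89%. Here and below, the 45 include the 8 members that the filter removed, which could not be called. The shares and medians of all genes cover only genes that passed it, so the denominators are unlike. These comparisons share the ADSC libraries. Libraries of the groups did not overlap for 30, 37 and 34 of the 45 members in the same order, where this held for 69.5%, 63.7% and 54.2% of all genes tested. The median log2 change of the 45 members was −0.44, −1.07 and −0.88 in the same order, while that of all genes kept was 0.18, 0.15 and 0.14. When library medians were set equal, the latter became −0.00739, −0.0134 and 0.0164. Of all 12364 genes, 2860 were then higher and 3255 lower in keratinocytes, 2986 and 3326 in in vitro iSEPs, and 2727 and 2943 in in vivo iSEPs. Members called were then 3 higher and 20 lower, 4 and 25, and 3 and 22. Without the ADSC library of mouse 2 the lower calls were 14, 15 and 14. In that fit 1755, 1884 and 1631 of all 11853 genes tested were lower, against 2555, 2684 and 2476 of 12364. Lower calls of members were 14, 17 and 16 without ADSCs of mouse 1, beside 1823, 1932 and 1682 of 11836 genes. They were 15, 15 and 14 without ADSCs of mouse 3, beside 1883, 1979 and 1774 of 11859. Without mouse 2 the calls of Tgfb2, Bmpr1b and Grem1 (in vitro iSEPs) and Acvrl1 (in vivo iSEPs) are lost. Bmp6 is then no longer tested, nor are the 5 members that pass the filter through ADSCs alone, which leave with any ADSC library. Those 5 members are among the lower calls of each comparison with ADSCs, which the filter favours, so their tests are given below from a fit without the filter. In this bulk RNA, fewer cells of a type and less RNA per cell cannot be told apart.

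In vitro iSEPs had 3 members higher and 5 lower than keratinocytes, against backgrounds of 5.22% and 6.12%, and in vivo iSEPs had 2 higher and 3 lower, against 3.41% and 4.08%. As shares of the 45 members these are 6.67% and 11.1%, then 4.44% and 6.67%. Between in vivo and in vitro iSEPs 1 member, Tgfbr3, was called, lower in vivo, against a background of 0.946% lower and 0.679% higher. Groups did not overlap for 15 members in in vitro iSEPs against keratinocytes, 18 in the in vivo iSEPs against keratinocytes and 4 between the iSEP groups, beside 40.8%, 27.8% and 15.0% of all genes tested. Without the in vitro iSEPs of mouse 3 the calls against keratinocytes came to 1 higher and 2 lower. In that fit 386 of all 12308 genes tested were higher and 356 lower, against 646 and 757 of 12364 with every library. Without the in vivo iSEPs of mouse 3 the calls came to 2 higher and 8 lower. There 660 of all 12314 genes tested were higher and 928 lower, against 421 and 504 of 12364, so calls rose over all genes too.

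Among the ligands, ADSCs carried the most transcripts. Inhba, the subunit of activin A (chromosome 13, 16011851 to 16031609 in mm10, plus strand), was the most abundant ligand transcript there. Its levels were 49.2, 87.0 and 141 FPKM in ADSCs, 14.3, 5.49 and 5.35 in in vitro iSEPs, 3.10, 4.73 and 8.54 in the in vivo iSEPs, and 14.1, 22.0 and 24.3 in keratinocytes. All ADSC libraries lay above all others, and the in vivo iSEPs lay below all keratinocytes. It was 4.60-fold lower in keratinocytes than in ADSCs (log2 change −2.05, SE 0.452, adjusted p = 0.00276), 11-fold lower in in vitro iSEPs (−3.32, adjusted p = 9.43e-05) and 17.0-fold lower in in vivo iSEPs (−3.82, adjusted p = 3.61e-05). Against keratinocytes the change was −1.76 in in vivo iSEPs (adjusted p = 0.0388) and −1.27 in in vitro iSEPs (adjusted p = 0.0953, not called). The call in in vivo iSEPs was lost with the mouse as a block (adjusted p = 0.0510) and without any of 5 libraries in turn, those of all 3 keratinocyte cultures and of in vivo iSEPs of mice 1 and 2 (adjusted p = 0.0578 to 0.145). In in vitro iSEPs it was reached without the library of mouse 1 (−1.68, adjusted p = 0.0420).

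Inhbb, the subunit of activin B, had the second highest ligand mean in keratinocytes, at 16.1 ± 2.32 FPKM (SD, n = 3), against 36.1 ± 1.5 in ADSCs, 11.1 ± 4.51 in in vitro iSEPs and 9.97 ± 1.66 in the in vivo iSEPs. It fell in all 3 comparisons with ADSCs, by 1.13, 1.70 and 1.77 on the log2 scale in keratinocytes, in vitro iSEPs and in vivo iSEPs (adjusted p = 0.0032, 0.000195 and 0.000158).

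Tgfb3 (chromosome 12, 86056743 to 86079041, minus strand), the TGF-beta isoform best known from embryonic palate fusion, separated the groups most sharply among the TGF-beta genes. It measured 33.2, 40.2 and 63.7 FPKM in ADSCs and 6.50, 5.48 and 5.13 in keratinocytes. In in vitro iSEPs it was 0.462, 2.33 and 1.21, and in in vivo iSEPs 0.222, 0.176 and 4.93. No library of any epithelial group reached the ADSC range, and all 6 iSEP libraries lay below all 3 keratinocyte libraries. Against ADSCs the log2 change was −2.75 in keratinocytes (SE 0.547, adjusted p = 0.00143), −4.35 in in vitro iSEPs (adjusted p = 5.22e-05) and −4.46 in in vivo iSEPs (adjusted p = 4.81e-05). Against keratinocytes neither iSEP group was called, at −1.60 (adjusted p = 0.0843) and −1.71 (adjusted p = 0.0873). The high library, in vivo iSEPs of mouse 3, is the one with the stromal marker sum of 172 FPKM, whose part in the result was not tested, and without it the change against keratinocytes was −2.48 (adjusted p = 0.00102).

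Tgfb1, the most widely expressed isoform, stayed close across all groups. Its libraries were 12.8, 15.6 and 19.4 FPKM in ADSCs, 15.3, 20.0 and 12.5 in in vitro iSEPs, 15.5, 19.4 and 16.7 in the in vivo iSEPs, and 17.2, 14.2 and 12.9 in keratinocytes. Every pair of groups overlapped, and no comparison was called (log2 changes −0.10 to 0.21, SE 0.191, adjusted p = 0.571 to 0.981). It had the highest mean of the ligands in both iSEP groups. Tgfb2 was scattered within groups, with 9.71 ± 6.04 FPKM in ADSCs, 2.20 ± 1.32 in in vitro iSEPs, 5.86 ± 4.70 in the in vivo iSEPs and 1.06 ± 0.400 in keratinocytes. It was lower than in ADSCs in keratinocytes (−2.24, adjusted p = 0.00577) and in in vitro iSEPs (−1.66, adjusted p = 0.0263). The second call was lost without ADSCs of mouse 2 or 3 or in vitro iSEPs of mouse 1 or 3 (adjusted p = 0.0628 to 0.11).

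**Figure D2:**
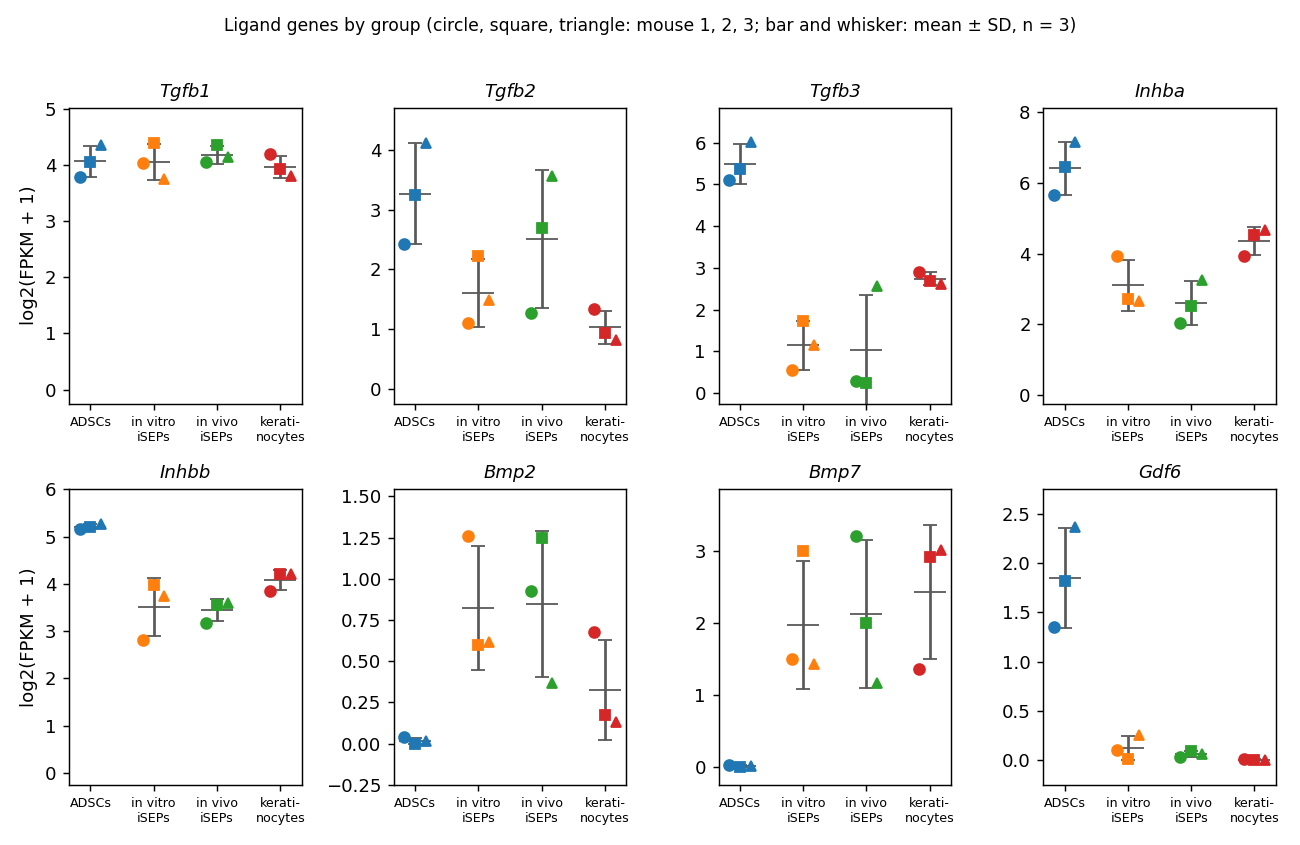
Log2(FPKM + 1) of 8 ligands by group, with a circle, square and triangle for mouse 1, 2 and 3 and a bar with whiskers for the mean ± SD (n = 3). Tgfb1 lies at one height in all groups, Inhba and Tgfb3 are highest in ADSCs, and Bmp7 is near 0 in ADSCs.

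Bmp7 (chromosome 2, 172868012 to 172940321, minus strand), a BMP made by many epithelia, was the one ligand called higher in each epithelial group than in ADSCs. It measured 0.017, 0 and 0.010 FPKM in ADSCs, which is about 3 reads in all. It measured 1.81, 6.95 and 1.68 in in vitro iSEPs, 8.20, 2.99 and 1.25 in the in vivo iSEPs, and 1.57, 6.53 and 7.09 in keratinocytes. ADSC libraries stayed below all others, and the 3 epithelial groups overlapped. The log2 change was 2.42 in keratinocytes (SE 0.582, adjusted p = 0.00478), 1.96 in in vitro iSEPs (adjusted p = 0.0149) and 2.11 in in vivo iSEPs (adjusted p = 0.0114). Without the in vitro iSEPs of mouse 2 the in vitro call was lost (1.44, adjusted p = 0.0616).

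The remaining ligands were low. Bmp2, a potent inducer of bone and a BMP of skin appendages, reached a mean of 0.855 FPKM in in vivo iSEPs, 0.813 in in vitro iSEPs, 0.272 in keratinocytes and 0.012 in ADSCs, where it rests on about 4 reads. In the fit without the filter Bmp2 was higher than in ADSCs in in vitro and in vivo iSEPs (0.81 and 0.83, adjusted p = 0.0423 and 0.0417), and in keratinocytes the change was 0.31 (adjusted p = 0.479). Bmp4 stayed at a mean of 0.0927 to 0.250 FPKM in the 4 groups, and Bmp5 was listed at 0 in all 9 epithelial libraries and at a mean of 0.111 in ADSCs. Bmp6, a BMP that also controls iron balance in the liver, fell in both iSEP groups against ADSCs, from 1.19 ± 0.301 FPKM to 0.159 ± 0.0490 in vitro and 0.343 ± 0.293 in vivo (−0.91, adjusted p = 0.00102, and −0.72, adjusted p = 0.00507). It was also lower in in vitro iSEPs than in keratinocytes (−0.69, adjusted p = 0.0276), a call lost without any of the 3 in vitro iSEP libraries or the keratinocytes of mouse 2 or 3 (adjusted p = 0.0512 to 0.0955). Without the keratinocytes of mouse 1 Bmp6 does not pass the filter and was not tested. Without the in vivo iSEPs of mouse 3 Bmp6 was lower in in vivo iSEPs than in keratinocytes too (−0.66, adjusted p = 0.0287). Gdf6, a BMP-like factor of joints, averaged 2.74 ± 1.32 FPKM in ADSCs and 0.0933 or less elsewhere, and Gdf15, a divergent stress-induced member, 5.20 ± 2.85 in ADSCs and 0.201 or less elsewhere. Both pass the filter through ADSCs alone, and in the fit without it both were lower in all 3 epithelial groups (log2 changes −1.84 to −1.72 for Gdf6, adjusted p = 0.000158 to 0.000243, and −2.39 to −2.29 for Gdf15, adjusted p = 0.000203 to 0.000295). Gdf10 was found at 3.57, 1.07 and 0.335 FPKM in ADSCs and at 0.011 or less in every other library (adjusted p = 0.028 to 0.0308 in the fit without the filter), and Gdf5 stayed at means of 0.0147 to 0.0660.

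Bmp1, which despite its name is a protease that processes collagens and releases BMPs from chordin, had 136, 128 and 139 FPKM in ADSCs and 60.2, 52.5 and 57.1 in keratinocytes. In vitro iSEPs had 28.0, 55.3 and 31.3, and in vivo iSEPs 49.2, 56.0 and 140. It fell in keratinocytes (−1.24, SE 0.346, adjusted p = 0.011) and in in vitro iSEPs (−1.85, adjusted p = 0.000932). The change in in vivo iSEPs was −0.88 (adjusted p = 0.0575) with the library of mouse 3, which lies just above the ADSC libraries, and −1.34 (adjusted p = 0.00069) without it.

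On the receiving side, all 4 receptor pairs had both partners at or above 1 FPKM in all 3 libraries of every group. The pairs read were Tgfbr1 with Tgfbr2 for TGF-beta, a BMP type I receptor (Bmpr1a, Bmpr1b or Acvr1) with a type II receptor (Bmpr2, Acvr2a or Acvr2b), Acvr1b with Acvr2a or Acvr2b for activin, and Acvrl1 with Tgfbr2 or Bmpr2. The same held with thresholds of 0.5 and 2 FPKM. What varied was the balance within the pairs.

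Tgfbr2, the type II receptor that binds TGF-beta (chromosome 9, 116087695 to 116175363, minus strand), had the highest mean of the receptors in ADSCs and in both iSEP groups, though in ADSCs of mouse 2 and 3 Bmpr1a was above it. It measured 74.6, 47.3 and 38.6 FPKM in ADSCs, 94.6, 67.8 and 97.7 in in vitro iSEPs, 72.4, 126 and 78.8 in the in vivo iSEPs, and 33.3, 37.7 and 44.1 in keratinocytes. All 6 iSEP libraries lay above all keratinocyte libraries, while each iSEP group overlapped ADSCs. The log2 change against keratinocytes was 1.15 in vitro (SE 0.265, adjusted p = 0.0202) and 1.21 in vivo (adjusted p = 0.0195), and against ADSCs 0.72 (adjusted p = 0.0388) and 0.79 (adjusted p = 0.0300). With the mouse as a block the calls against ADSCs were lost (adjusted p = 0.0626 and 0.0514), as they were with equal library medians (adjusted p = 0.104 and 0.0636). The calls against keratinocytes were lost without in vitro iSEPs of mouse 1 or 3 or keratinocytes of mouse 1 or 2 (adjusted p = 0.0567 to 0.0771), and without in vivo iSEPs of mouse 2 or any keratinocyte library (adjusted p = 0.0508 to 0.0859). Those against ADSCs were lost in vitro without ADSCs of mouse 2 or 3 or in vitro iSEPs of mouse 1 or 3 (adjusted p = 0.102 to 0.153), and in vivo without ADSCs of mouse 2 or 3 or in vivo iSEPs of mouse 2 (adjusted p = 0.0923 to 0.123).

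Its partner Tgfbr1, the type I receptor (chromosome 4, 47353222 to 47414924, plus strand), moved the other way. It measured 15.0, 12.8 and 12.1 FPKM in ADSCs and 13.7, 13.0 and 12.1 in keratinocytes, against 5.28, 5.36 and 3.79 in in vitro iSEPs and 8.58, 4.59 and 6.46 in the in vivo iSEPs. All 6 iSEP libraries lay below all 6 libraries of the other groups, which overlapped each other. In vitro iSEPs were 2.76-fold below ADSCs (−1.31, SE 0.191, adjusted p = 0.000164) and 2.69-fold below keratinocytes (−1.27, adjusted p = 0.00276). In vivo iSEPs were 2.03-fold below ADSCs (−0.95, adjusted p = 0.00172) and 1.98-fold below keratinocytes (−0.92, adjusted p = 0.0155). The last call was lost without in vivo iSEPs of mouse 2 or any 1 keratinocyte library (adjusted p = 0.0517 to 0.0691).

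The ratio of Tgfbr2 to Tgfbr1 FPKM was 2.43, 2.9 and 3.64 in keratinocytes and 4.98, 3.70 and 3.19 in ADSCs, against 17.9, 12.7 and 25.8 in in vitro iSEPs and 8.43, 27.4 and 12.2 in the in vivo iSEPs. Every iSEP library had a higher ratio than every library of the other groups.

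Tgfbr3 (betaglycan, chromosome 5, 107106570 to 107289595, minus strand), the co-receptor that presents TGF-beta2 and inhibin, measured 35.0, 17.4 and 15.6 FPKM in ADSCs. In vitro iSEPs had 3.47, 5.18 and 4.21, in vivo iSEPs 0.484, 1.35 and 1.20, and keratinocytes 1.06, 1.29 and 1.15. In vitro iSEPs stood between ADSCs and the other epithelial groups with no overlap on either side. The fall from ADSCs was 19.4-fold in keratinocytes (−3.36, SE 0.280, adjusted p = 1.99e-06), 22.4-fold in in vivo iSEPs (−3.50, adjusted p = 1.61e-06) and 5.29-fold in in vitro iSEPs (−2.09, adjusted p = 8.38e-05). In vitro iSEPs were above keratinocytes (1.28, adjusted p = 0.0161), and in vivo iSEPs below in vitro iSEPs (−1.41, adjusted p = 0.0353). Both of the last calls rest on few libraries. The first was lost without in vitro iSEPs of mouse 3 or any keratinocyte library (adjusted p = 0.0501 to 0.0585), the second with the mouse as a block (adjusted p = 0.0671) and without each of the 3 in vitro iSEP libraries and the in vivo iSEPs of mice 1 and 2 (adjusted p = 0.0508 to 0.135).

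**Figure D3:**
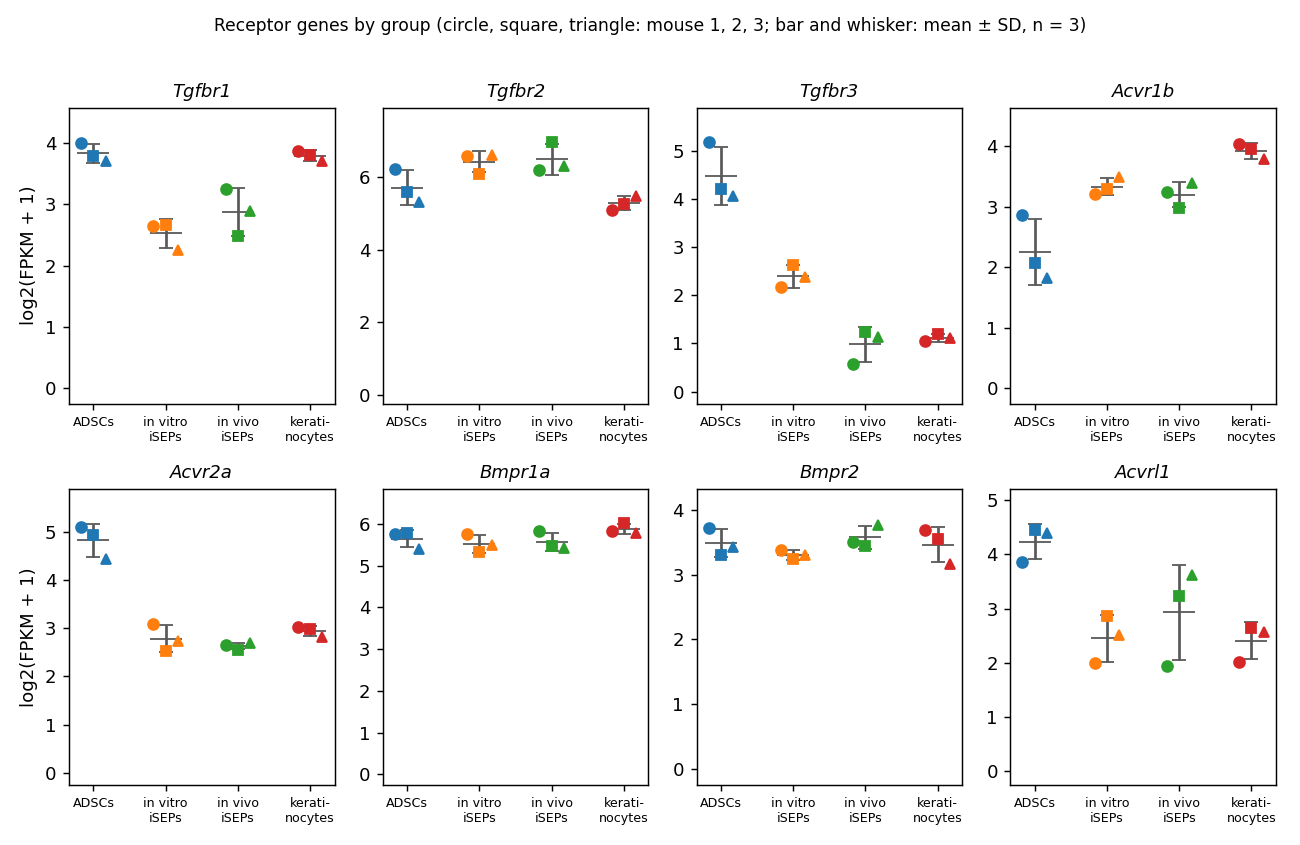
Log2(FPKM + 1) of 8 receptors by group, with a circle, square and triangle for mouse 1, 2 and 3 and a bar with whiskers for the mean ± SD (n = 3). Tgfbr1 is low and Tgfbr2 high in both iSEP groups, Acvr2a is highest in ADSCs, Acvr1b is lowest there, and Bmpr1a and Bmpr2 hardly vary.

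The activin receptors changed places. Acvr1b, the type I receptor of activin (chromosome 15, 101174125 to 101212601, plus strand), measured 6.26, 3.23 and 2.54 FPKM in ADSCs, 8.30, 8.76 and 10.3 in in vitro iSEPs, 8.46, 6.88 and 9.49 in the in vivo iSEPs, and 15.4, 14.5 and 12.8 in keratinocytes. All epithelial libraries were above all ADSC libraries. The rise was 3.55-fold in keratinocytes (1.67, SE 0.232, adjusted p = 0.000108), 2.28-fold in in vitro iSEPs (1.08, adjusted p = 0.00227) and 2.06-fold in in vivo iSEPs (0.95, adjusted p = 0.00574). Acvr2a, its type II partner, fell from 27.8 ± 6.55 FPKM in ADSCs to 6.69 ± 0.555 in keratinocytes, 5.99 ± 1.40 in in vitro iSEPs and 5.19 ± 0.298 in the in vivo iSEPs (log2 changes −1.88, −2.04 and −2.19, adjusted p = 7.54e-06, 4.13e-06 and 2.45e-06). The ratio of Acvr1b to Acvr2a was 0.11 to 0.187 over the ADSC libraries and 1.10 to 2.16 over the 9 epithelial libraries. The other type II receptor of activin, Acvr2b, was at or below 0.959 FPKM in every library, and in the fit without the filter was higher than in ADSCs in keratinocytes, in vitro and in vivo iSEPs (0.76, 0.62 and 0.58, adjusted p = 0.000176, 0.000607 and 0.000941).

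Of the BMP receptors, Bmpr1a and Bmpr2 were called in no comparison. Bmpr1a, a type I receptor for BMP2 and BMP4 (chromosome 14, 34411068 to 34502546, minus strand), was the most abundant receptor in keratinocytes, at 56.2, 63.8 and 53.7 FPKM. It measured 53.2, 53.8 and 41.5 in ADSCs, 52.9, 39.1 and 43.9 in in vitro iSEPs, and 55.5, 43.7 and 41.7 in the in vivo iSEPs (log2 changes −0.35 to 0.23, adjusted p = 0.163 to 0.928). Bmpr2, the BMP type II receptor, stayed at means of 8.91 to 11 FPKM with no call (adjusted p = 0.372 to 0.925). Bmpr1b was lower than in ADSCs (6.51 ± 0.877 FPKM) in each epithelial group, at 3.94 ± 0.423 in keratinocytes, 4.44 ± 0.533 in in vitro iSEPs and 2.85 ± 0.725 in the in vivo iSEPs (adjusted p = 0.00895, 0.0319 and 0.00047). The in vitro call was lost without ADSCs or in vitro iSEPs of mouse 2 or 3 (adjusted p = 0.0635 to 0.109). Without the in vivo iSEPs of mouse 3, Bmpr1b was also lower in in vivo iSEPs than in keratinocytes (−0.52, adjusted p = 0.0491) and in vitro iSEPs (−0.66, adjusted p = 0.0491). Acvr1, a type I receptor shared by BMPs and known for its role in heterotopic bone, was lower in in vitro iSEPs (16.9 ± 4.14 FPKM) than in ADSCs (27.0 ± 3.41, −0.67, adjusted p = 0.0216) and keratinocytes (29.3 ± 1.23, −0.79, adjusted p = 0.039). The call against ADSCs was lost without ADSCs of mouse 1 or in vitro iSEPs of mouse 1 or 3 (adjusted p = 0.0548 to 0.0821). That against keratinocytes was lost with the mouse as a block (adjusted p = 0.0582) and without in vitro iSEPs of mouse 1 or 3 or any keratinocyte library (adjusted p = 0.0902 to 0.128).

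Acvrl1, the ALK1 receptor best known from endothelial cells, had 18.1 ± 4.03 FPKM in ADSCs, 4.63 ± 1.63 in in vitro iSEPs, 7.50 ± 4.29 in the in vivo iSEPs and 4.42 ± 1.21 in keratinocytes, and was called lower in all 3 (−1.78, −1.30 and −1.82, adjusted p = 0.00267, 0.0176 and 0.0024). The in vivo call was lost without ADSCs of mouse 2 or 3 (adjusted p = 0.0629 and 0.0573). The endothelial markers summed to 0.713 to 9.77 FPKM per library over 6 genes, and none of the 6 reached 1 FPKM in all libraries of an iSEP group. Cdh5 did not exceed 0.078 FPKM in any library, and Pecam1 was 8.72 FPKM in the in vivo iSEPs of mouse 1. Tek was 2.31, 2.21 and 1.78 FPKM in ADSCs, 0.785, 0.742 and 0.591 in the in vivo iSEPs, and 0.15 or less in the other epithelial libraries. The part of these in the result was not tested.

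Among the Smads, the common partner Smad4 was the most abundant in every group. It measured 28.3, 24.9 and 25.6 FPKM in ADSCs, 22.3, 24.7 and 23.0 in in vitro iSEPs, 21.1, 24.8 and 25.3 in the in vivo iSEPs, and 26.9, 23.4 and 22.9 in keratinocytes, and was called in no comparison (log2 changes −0.17 to 0.02, SE 0.107). With equal library medians the change of in vitro iSEPs against ADSCs was −0.33 (adjusted p = 0.034). The BMP mediators Smad1 and Smad5 stayed between means of 10.8 and 14.0 FPKM and of 9.28 and 10.6 FPKM. Smad1 was called in 1 comparison, 0.35 higher in in vitro iSEPs than in ADSCs (adjusted p = 0.0268), and that call was lost with equal library medians (adjusted p = 0.223) and without ADSCs of mouse 2 or 3 or in vitro iSEPs of mouse 1 or 3 (adjusted p = 0.0617 to 0.107). Without the in vivo iSEPs of mouse 3, Smad1 was also higher in in vivo iSEPs than in ADSCs (0.36, adjusted p = 0.0404). Smad9, the third mediator of BMP, was at 0.540 ± 0.147 FPKM in ADSCs and 0.0103 or less elsewhere, lower in all 3 epithelial groups in the fit without the filter (adjusted p = 3.83e-05 to 3.99e-05).

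The mediators of TGF-beta and activin were less even. Smad3 (chromosome 9, 63646767 to 63757994, minus strand) measured 15.9, 16.1 and 18.5 FPKM in ADSCs and 18.8, 15.4 and 13.8 in keratinocytes. It measured 5.71, 9.40 and 7.13 in in vitro iSEPs and 6.70, 7.28 and 13.1 in the in vivo iSEPs. As with Tgfbr1, all 6 iSEP libraries lay below the other 6. It was lower than in ADSCs in in vitro iSEPs (−1.10, SE 0.234, adjusted p = 0.00212) and in in vivo iSEPs (−0.88, adjusted p = 0.00921). Against keratinocytes the fall was called in vitro (−1.03, adjusted p = 0.0188) and not in vivo (−0.81, adjusted p = 0.0625). The in vitro call was lost without in vitro iSEPs of mouse 1 or 3 or keratinocytes of mouse 1 or 2 (adjusted p = 0.0567 to 0.0755), and the in vivo change was called without the library of mouse 3 (−1.08, adjusted p = 0.00439). Smad2 measured 7.76, 7.59 and 7.54 FPKM in ADSCs, 9.0, 9.84 and 8.76 in in vitro iSEPs, 9.34, 7.99 and 8.57 in the in vivo iSEPs, and 10.4, 11.2 and 11.5 in keratinocytes. Keratinocytes lay above all other libraries, and their rise over ADSCs was 1.44-fold (0.48, SE 0.102, adjusted p = 0.00231).

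The inhibitory Smads, whose values in each library are shown because they looked distinct once seen, were highest in ADSCs. Smad6, which restrains BMP signalling (chromosome 9, 63953076 to 64022059, minus strand), measured 6.48, 6.46 and 7.2 FPKM in ADSCs. It measured 0.026, 0.090 and 0.109 in in vitro iSEPs, 0.120, 0.022 and 0.053 in the in vivo iSEPs, and 0.515, 0.268 and 0.224 in keratinocytes. The iSEP libraries lay below the keratinocytes and these far below ADSCs. Smad6 passes the filter through ADSCs alone. In the fit without the filter, the gap to ADSCs was 20.0-fold in keratinocytes (−2.54, adjusted p = 8.16e-08), 89.5-fold in in vitro iSEPs (−2.84, adjusted p = 4.31e-08) and 103-fold in in vivo iSEPs (−2.86, adjusted p = 4.32e-08), where the iSEP means rest on 18 and 17 reads over 3 libraries. Against keratinocytes neither iSEP group was called in the main fit, which has the filter (adjusted p = 0.133 and 0.149). With a pseudocount of 0.1 the changes were −1.29 (adjusted p = 0.0383) and −1.39 (adjusted p = 0.0379). Smad7, which restrains both branches, fell from 8.21 ± 1.78 FPKM in ADSCs to 3.09 ± 0.786 in keratinocytes, 2.18 ± 0.867 in in vitro iSEPs and 2.94 ± 1.36 in the in vivo iSEPs (−1.17, −1.55 and −1.26, adjusted p = 0.00362, 0.000573 and 0.00256).

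The antagonists showed 2 patterns, apart from Fstl3, which was called in no comparison of the main fit. Fstl1, a secreted follistatin-like glycoprotein that binds BMPs (chromosome 16, 37777055 to 37836516, plus strand), was by far the most abundant member in ADSCs, at 868, 719 and 650 FPKM. It measured 28.6, 47.8 and 36.5 in in vitro iSEPs, 34.7, 83.7 and 66.6 in the in vivo iSEPs, and 3.67, 2.77 and 2.13 in keratinocytes. Both iSEP groups lay between ADSCs and keratinocytes with no overlap on either side. Against ADSCs the fall was 261-fold in keratinocytes (−7.61, SE 0.297, adjusted p = 4.94e-09), 19.8-fold in in vitro iSEPs (−4.29, adjusted p = 4.56e-07) and 12.1-fold in in vivo iSEPs (−3.65, adjusted p = 1.82e-06). Against keratinocytes it was 13.2-fold higher in vitro (3.31, adjusted p = 0.000243) and 21.6-fold higher in vivo (3.95, adjusted p = 7.57e-05), and both calls held in every alternative that tested them. The summed stromal markers were 83.8 to 228 FPKM in in vitro iSEPs, where 6 of 8 markers were at or above 1 FPKM in all libraries, and 38.8 to 46.3 in keratinocytes, where 5 were. In the in vivo iSEPs it was 28.7, 50.7 and 172 FPKM, the first below and the others above all keratinocytes, and its part in the result was not tested.

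Grem1 (gremlin, chromosome 2, 113748675 to 113758648, minus strand), a secreted BMP antagonist of mesenchyme, measured 61.5, 41.6 and 69.0 FPKM in ADSCs, 8.68, 22.3 and 16.5 in in vitro iSEPs, 0.305, 0.889 and 11.8 in the in vivo iSEPs, and 8.44, 9.09 and 6.83 in keratinocytes. ADSCs lay above all others. It was lower than in ADSCs by 2.66 on the log2 scale in keratinocytes (adjusted p = 0.00677), by 1.85 in in vitro iSEPs (adjusted p = 0.0388) and by 4.18 in in vivo iSEPs (adjusted p = 0.000403). The in vitro call was lost without any 1 of 5 libraries, all but the in vitro iSEPs of mouse 2 (adjusted p = 0.0556 to 0.126). It was also lost with pseudocounts of 0.1 and 0.5 (adjusted p = 0.105 and 0.062) and without the filter (adjusted p = 0.104). In in vivo iSEPs the library of mouse 3 again stood out. With it the changes against keratinocytes and in vitro iSEPs were −1.52 (adjusted p = 0.215) and −2.32 (adjusted p = 0.128), and without it −2.53 (adjusted p = 0.00108) and −3.33 (adjusted p = 0.000952). Its stromal marker sum is the 172 FPKM given above, and the part of that in the result was not tested.

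Fst (follistatin, chromosome 13, 114452262 to 114458951, minus strand), which binds activin and keeps it from its receptors, showed the other pattern. It measured 46.6, 20.4 and 35.4 FPKM in ADSCs, 105, 286 and 123 in in vitro iSEPs, 134, 72.1 and 100 in the in vivo iSEPs, and 121, 38.2 and 47.0 in keratinocytes. It had the highest mean of the antagonists in every epithelial group, though in the in vivo iSEPs of mouse 2 Fstl1 was above it. Both iSEP groups lay above all ADSC libraries, and keratinocytes overlapped all 3 other groups. The rise over ADSCs was 5.02-fold in vitro (2.22, SE 0.488, adjusted p = 0.00264) and 3.00-fold in vivo (1.59, adjusted p = 0.0196), and in keratinocytes the change was 0.88 (adjusted p = 0.154). The in vivo call was lost without ADSCs of mouse 2 or in vivo iSEPs of mouse 1 (adjusted p = 0.0854 and 0.066). Without the keratinocytes of mouse 1, in vitro iSEPs were also above keratinocytes (1.84, adjusted p = 0.0429). The ratio of Fst to Inhba was 0.948, 0.234 and 0.251 in ADSCs, 7.36, 52.1 and 22.9 in in vitro iSEPs, 43.3, 15.3 and 11.8 in the in vivo iSEPs, and 8.56, 1.74 and 1.93 in keratinocytes. ADSCs had less Fst than Inhba in every library, and every epithelial library had more. With Inhbb added to Inhba, Fst was the lower in keratinocytes of mouse 2 (38.2 FPKM, against 22.0 and 17.5).

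**Figure D4:**
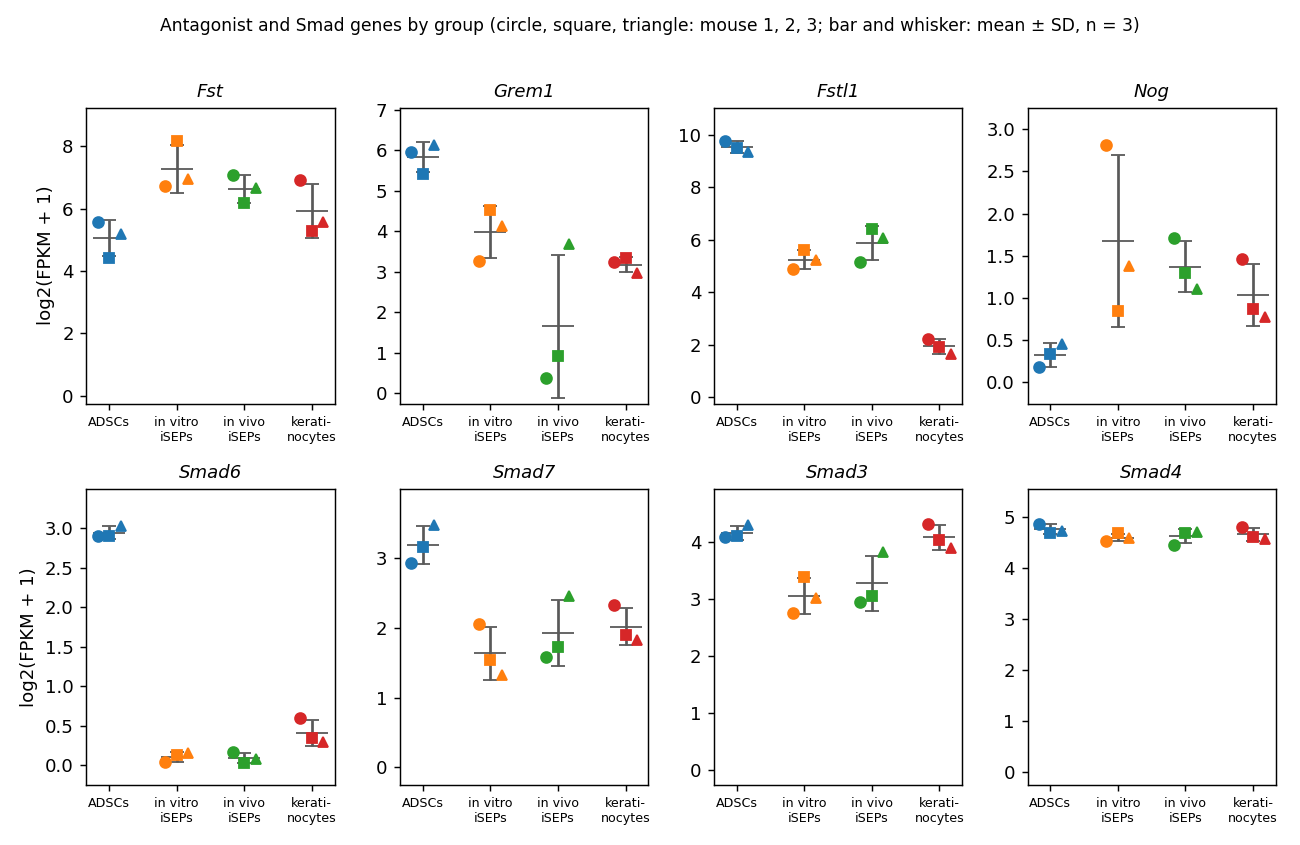
Log2(FPKM + 1) of 4 antagonists and 4 Smads by group, with a circle, square and triangle for mouse 1, 2 and 3 and a bar with whiskers for the mean ± SD (n = 3). Fstl1 steps down from ADSCs to iSEPs to keratinocytes, Fst is highest in iSEPs, Smad6 is near 0 outside ADSCs and Smad4 is flat.

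Nog (noggin, chromosome 11, 89300638 to 89302559, minus strand), which captures BMPs outside the cell, was low and scattered. It measured 0.131, 0.266 and 0.373 FPKM in ADSCs, 6.05, 0.801 and 1.60 in in vitro iSEPs, 2.27, 1.46 and 1.16 in the in vivo iSEPs, and 1.75, 0.829 and 0.710 in keratinocytes. All epithelial libraries were above all ADSC libraries. The rise was called in in vitro iSEPs (1.36, SE 0.410, adjusted p = 0.0161), though not without ADSCs of mouse 1 (adjusted p = 0.052). In in vivo iSEPs the change was 1.05 (adjusted p = 0.0551, or 0.0325 with the mouse as a block) and in keratinocytes 0.71 (adjusted p = 0.168). With a pseudocount of 0.1 both were called, at 2.29 in in vivo iSEPs (adjusted p = 0.0103) and 1.71 in keratinocytes (adjusted p = 0.0382). Chrd (chordin), another BMP trap, went the other way, at 2.72, 1.44 and 0.837 FPKM in ADSCs and at means of 0.217 or less elsewhere. It did not pass the filter, and in the fit without it was lower in keratinocytes, in vitro and in vivo iSEPs (−1.32, −1.07 and −1.25, adjusted p = 0.0012, 0.00395 and 0.00189). Bambi, a membrane pseudoreceptor, averaged 2.38 ± 0.341 FPKM in ADSCs and 0.115 or less elsewhere, and passes the filter through ADSCs alone. In the fit without the filter it was lower in keratinocytes, in vitro and in vivo iSEPs (−1.61, −1.60 and −1.64, adjusted p = 7.2e-07, 8.01e-07 and 6.99e-07). Fstl3, a follistatin relative, was at means of 19.6 to 33.3 FPKM and not called anywhere. Without the in vivo iSEPs of mouse 1 it was higher in in vivo iSEPs than in ADSCs, keratinocytes and in vitro iSEPs (0.63, 0.93 and 1.05, adjusted p = 0.0341, 0.0187 and 0.0339). In the mm10 annotation 47.3% of the exon bases of Fstl3 overlap Prss57 on the other strand, and without knowing whether the kit marks strand their reads cannot be told apart.

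The 4 Id genes encode proteins that block bHLH transcription factors, and all of them were highest on average in ADSCs. Id3 (chromosome 4, 136143822 to 136145392, plus strand) was the most abundant in every group, at 112, 119 and 98.7 FPKM in ADSCs, 48.5, 10.6 and 17.9 in in vitro iSEPs, 22.5, 29.0 and 16.0 in the in vivo iSEPs, and 43.3, 33.7 and 39.1 in keratinocytes. ADSCs lay above all other libraries. The fall was 2.84-fold in keratinocytes (−1.48, SE 0.414, adjusted p = 0.0107), 4.28-fold in in vitro iSEPs (−2.32, adjusted p = 0.00068) and 4.88-fold in in vivo iSEPs (−2.27, adjusted p = 0.000883). The in vitro iSEPs of mouse 1 were the high library of their group, and without it in vitro iSEPs were also below keratinocytes (−1.42, adjusted p = 0.0103), which they were not with it (−0.84, adjusted p = 0.215).

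Id2 (chromosome 12, 25093799 to 25096092, minus strand) was lower in both iSEP groups than in ADSCs and keratinocytes. It measured 21.5, 21.1 and 14.7 FPKM in ADSCs and 15.3, 14.4 and 11.5 in keratinocytes, which overlapped, against 2.21, 1.82 and 1.02 in in vitro iSEPs and 4.61, 3.05 and 4.53 in the in vivo iSEPs. All 6 iSEP libraries lay below all others, and the in vitro below the in vivo. In vitro iSEPs were 11.3-fold below ADSCs (−2.91, SE 0.217, adjusted p = 8.59e-07) and 8.14-fold below keratinocytes (−2.47, adjusted p = 0.000243). In vivo iSEPs were 4.70-fold below ADSCs (−1.98, adjusted p = 2e-05) and 3.37-fold below keratinocytes (−1.54, adjusted p = 0.00225). These 4 calls held in every alternative. Keratinocytes against ADSCs were not called (−0.44, adjusted p = 0.11), but were with equal library medians (−0.63, adjusted p = 0.0257) and without ADSCs of mouse 3 (−0.61, adjusted p = 0.0499). In vivo against in vitro iSEPs differed by 0.93 (adjusted p = 0.0643), and by 0.96 after quantile normalization (adjusted p = 0.0435).

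Id1 and Id4 are also shown by library after their values were seen. Id1 measured 18.2, 18 and 26.6 FPKM in ADSCs, 10.4, 2.12 and 3.64 in in vitro iSEPs, 3.45, 2.17 and 1.25 in the in vivo iSEPs, and 4.03, 4.53 and 3.79 in keratinocytes. It was 5.08-, 3.89- and 9.15-fold lower than in ADSCs in keratinocytes, in vitro iSEPs and in vivo iSEPs (adjusted p = 0.00124, 0.00169 and 0.000181). Id4 was 6.20, 4.22 and 5.47 FPKM in ADSCs, 0.071, 0.081 and 0.146 in in vitro iSEPs, 0.818, 0.060 and 0.265 in the in vivo iSEPs, and 0.561, 0.773 and 0.582 in keratinocytes, and passes the filter through ADSCs alone. In the fit without the filter it was lower in keratinocytes, in vitro and in vivo iSEPs (−1.93, −2.50 and −2.21, adjusted p = 7.26e-05, 1.49e-05 and 3.48e-05). In vitro iSEPs of mouse 1 held the highest iSEP value of Id1, as they did of Id3.

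**Figure D5:**
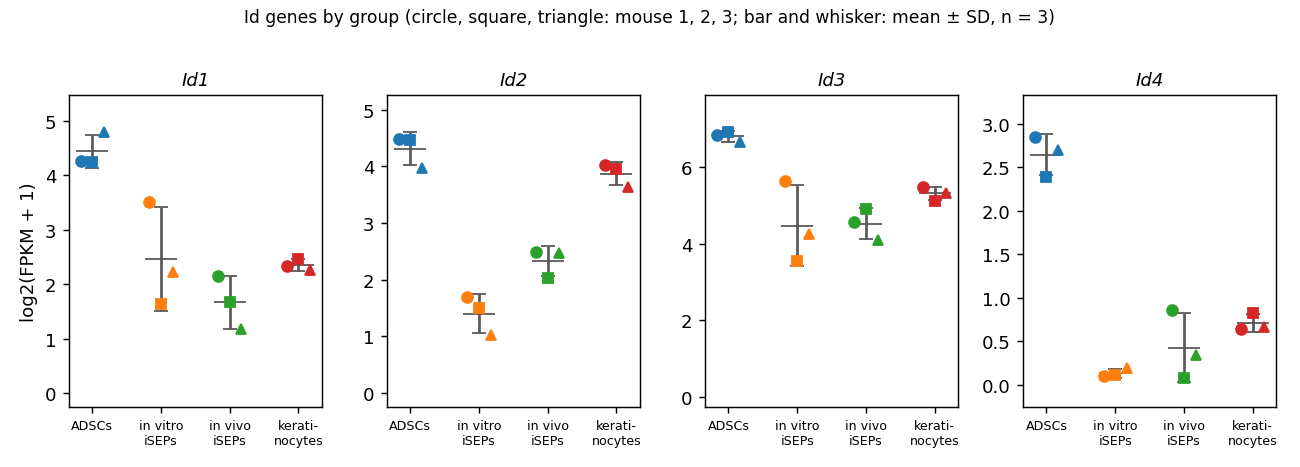
Log2(FPKM + 1) of the 4 Id genes by group, with a circle, square and triangle for mouse 1, 2 and 3 and a bar with whiskers for the mean ± SD (n = 3). ADSCs are highest for Id1, Id3 and Id4, and Id2 is low in both iSEP groups and not in keratinocytes.

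Promoter sequences are shown for Smad6, Id2 and Id3, genes known to respond to BMP that were lower in both iSEP groups than in ADSCs and have a RefSeq entry that starts where the deposited table places the transcript. They were taken from RefSeq promoters of the assembly GRCm38.p6 (mm10), in which 30 of the 45 members matched. Each runs 5′ to 3′ on the gene's own strand from 250 bases before the start to 12 bases from it on. Capitals mark the short letters searched on both strands, which resemble Smad binding sites: the box GGCGCC, the element GTCTGGC, a second box with the letters GGCTCC (on the other strand it reads GGAGCC) and the palindrome GTCTAGAC. Smad6 lies at chr9:64022048-64022309 on the minus strand, Id2 at chr12:25096081-25096342 on the minus strand and Id3 at chr4:136143572-136143833 on the plus strand.
Smad6: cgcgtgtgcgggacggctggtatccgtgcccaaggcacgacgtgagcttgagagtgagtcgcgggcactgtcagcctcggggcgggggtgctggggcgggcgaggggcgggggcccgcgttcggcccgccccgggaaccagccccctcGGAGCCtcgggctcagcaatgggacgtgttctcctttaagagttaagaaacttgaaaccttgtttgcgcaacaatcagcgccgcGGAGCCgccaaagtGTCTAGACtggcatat
Id2: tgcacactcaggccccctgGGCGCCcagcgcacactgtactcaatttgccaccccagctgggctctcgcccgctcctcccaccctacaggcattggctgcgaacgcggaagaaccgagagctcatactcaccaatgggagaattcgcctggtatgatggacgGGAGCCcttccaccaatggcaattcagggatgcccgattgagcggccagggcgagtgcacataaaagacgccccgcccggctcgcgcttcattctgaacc
Id3: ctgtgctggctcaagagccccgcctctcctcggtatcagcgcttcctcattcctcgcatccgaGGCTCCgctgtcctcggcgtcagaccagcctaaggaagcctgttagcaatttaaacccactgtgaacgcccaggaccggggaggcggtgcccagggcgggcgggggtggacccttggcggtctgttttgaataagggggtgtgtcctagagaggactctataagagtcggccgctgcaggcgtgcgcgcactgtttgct
In Smad6 the letters begin 102, 18 and 4 bases before the start, so that the palindrome spans the start itself. In Id2 they begin 231 and 88 bases before the start, and in Id3 187 bases before it. Among all 32851 RefSeq windows of 300 bases, the box GGCGCC was found in 11.9%, the second box in 30.8%, the element in 4.34% and the palindrome in 0.213%, which is 70 windows. Of the 36 windows of the matched members, 12 held the box GGCGCC, 21 the second box, 1 the element and 1, that of Smad6, the palindrome. A match describes letters in a window and not binding.

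Genes that store and release TGF-beta were counted next. The shares of all genes tested given above for the comparisons with ADSCs, 32.8% higher and 20.7% lower in keratinocytes, 32.1% and 21.7% in in vitro iSEPs, and 27.6% and 20.0% in the in vivo iSEPs, are the background of this and the following lists. Of 12 listed genes 11 were tested, and 2 were higher and 5 lower in keratinocytes than in ADSCs, 3 and 6 in in vitro iSEPs, and 2 and 5 in the in vivo iSEPs. Several were highest in ADSCs. Fbn1 (fibrillin 1) had 304 ± 36.3 FPKM there against 2.9 ± 1.56 in in vitro iSEPs, 1.51 ± 1.03 in the in vivo iSEPs and 0.595 ± 0.124 in keratinocytes. Lrrc32 (GARP) had 244 ± 33.2 against 5.57 ± 5.51, 6.31 ± 5.55 and 0.459 ± 0.225, and Ltbp2, of the latent TGF-beta binding protein family, 87.6 ± 30.1 against 1.56 ± 1.14, 0.560 ± 0.674 and 0.390 ± 0.0863. Ltbp1 and Ltbp4 were lowest on average in ADSCs. Ltbp1 was at 9.56 ± 6.91 FPKM there and 20.2 ± 4.19 in in vitro iSEPs (1.19, adjusted p = 0.0285), and Ltbp4 at 2.58 ± 1.37, against 7.94 ± 2.46 in vitro and 9.14 ± 2.33 in vivo (1.34 and 1.54, adjusted p = 0.00223 and 0.00104). All 9 falls of Fbn1, Lrrc32 and Ltbp2 were called (adjusted p = 1.83e-08 to 3.73e-05). Itgb6, the integrin subunit with which epithelia activate TGF-beta, was at 0.0243 ± 0.0180 FPKM in ADSCs, 27.4 ± 12.1 in in vitro iSEPs, 22.2 ± 17.5 in the in vivo iSEPs and 65.6 ± 5.78 in keratinocytes, and rose in all 3 (4.69, 4.25 and 6.02, adjusted p = 4.94e-06, 1.22e-05 and 6.56e-07). Itgb8, another activating integrin subunit, was at 3.44 ± 0.512 FPKM in keratinocytes and 0.192 ± 0.119 in in vitro iSEPs (−1.90, adjusted p = 0.00557).

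Among 17 further ligands 4 were tested. Gdf11 fell from 8.07 ± 0.262 FPKM in ADSCs to 0.492 ± 0.0830 in keratinocytes, 0.632 ± 0.303 in in vitro iSEPs and 1.15 ± 0.412 in the in vivo iSEPs (adjusted p = 3.06e-07, 4.65e-07 and 2.07e-06). Bmp3, an atypical BMP that opposes the others, measured 31.5, 3.31 and 10.9 FPKM in in vitro iSEPs against 0.005 or less in ADSCs, 0.475, 1.33 and 0.776 in the in vivo iSEPs and 3.34, 1.47 and 1.43 in keratinocytes. It was higher in in vitro iSEPs than in ADSCs (3.56, adjusted p = 0.000271). Bmp8a was higher in in vitro iSEPs (3.17 ± 0.325 FPKM) and in vivo iSEPs (2.75 ± 0.857) than in ADSCs (0.563 ± 0.353, adjusted p = 0.000263 and 0.000749).

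Of 8 further receptors and co-receptors 6 were found in the table and 4 tested. Eng (endoglin), a co-receptor of endothelial and mesenchymal cells, measured 17.0, 18 and 21 FPKM in ADSCs, 2.55, 2.85 and 0.390 in in vitro iSEPs, 9.57, 14.5 and 8.87 in the in vivo iSEPs, and 0.331, 0.233 and 0.360 in keratinocytes. In vivo iSEPs lay above both other epithelial groups. They were higher than keratinocytes (3.17, SE 0.331, adjusted p = 0.000446) and than in vitro iSEPs (2.14, adjusted p = 0.0126, lost without in vivo iSEPs of mouse 2, adjusted p = 0.0554). Against ADSCs the change was −0.74 (adjusted p = 0.0881). The endothelial marker Tek was 0.785, 0.742 and 0.591 FPKM in in vivo iSEPs and 0.15 or less in the other epithelial libraries. Pecam1 was 8.72, 0.306 and 0.669 FPKM in in vivo iSEPs. Kdr and Tie1 overlapped keratinocytes there, and Cdh5 was at or below 0.032 FPKM. The part of these markers in the result was not tested. Among 11 other antagonists 5 were tested, with 2 lower in keratinocytes than in ADSCs, 3 lower in in vitro iSEPs and 2 lower in the in vivo iSEPs. Bmper, a secreted BMP-binding protein, fell from 14.6 ± 2.02 FPKM in ADSCs to means of 0.522 or less in the epithelial groups (adjusted p = 1.84e-06 to 3.56e-06 in the fit without the filter, which it passes through ADSCs alone). Twsg1, which can aid or hinder BMPs, rose in in vitro and in vivo iSEPs over ADSCs (0.63, adjusted p = 0.00679, and 0.65, adjusted p = 0.00627).

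All 11 listed regulators of Smads were tested, with 5 higher and 1 lower in keratinocytes than in ADSCs, 3 and 3 in in vitro iSEPs, and 4 and 1 in the in vivo iSEPs. Tgif1, a corepressor of Smad2 and Smad3, rose from 33.8 ± 3.54 FPKM in ADSCs to 78.6 ± 7.26 in keratinocytes, 88.4 ± 25.9 in in vitro iSEPs and 95.5 ± 19.2 in the in vivo iSEPs (adjusted p = 0.000535, 0.000253 and 0.000142). Trim33, a ubiquitin ligase that acts on Smad4, rose in the same 3 comparisons (0.82, 0.54 and 0.64, adjusted p = 8.31e-05, 0.00155 and 0.0006).

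Known target genes of both branches, each of which answers to other inputs too, were counted as well. Of 12 TGF-beta targets, all tested, 1 was higher and 6 lower in keratinocytes than in ADSCs, 0 and 9 in in vitro iSEPs, and 0 and 4 in the in vivo iSEPs. At an unadjusted p below 0.05 in limma, 1 and 0 were higher in these iSEP groups. Col1a1, the collagen I chain and also a stromal marker, went from 1740 ± 133 FPKM in ADSCs to 11 ± 5.78 in in vitro iSEPs, 1.92 ± 2.03 in the in vivo iSEPs and 1.98 ± 0.454 in keratinocytes (adjusted p = 1.8e-07, 2.61e-08 and 2.75e-08). Pmepa1, a feedback inhibitor of TGF-beta signalling, was 45 ± 4.28 FPKM in ADSCs, 60.3 ± 1.06 in keratinocytes, 13.3 ± 9.0 in in vitro iSEPs and 34.0 ± 21.3 in the in vivo iSEPs, and was lower in in vitro iSEPs than in keratinocytes (−2.29, adjusted p = 0.0085) and ADSCs (−1.87, adjusted p = 0.00366). Acta2, the smooth muscle actin of myofibroblasts, was 798, 2660 and 2940 FPKM in in vivo iSEPs, against 438, 183 and 207 in keratinocytes (2.85, SE 0.503, adjusted p = 0.00705) and 1330, 2050 and 2760 in ADSCs (−0.09, adjusted p = 0.901). Myh11, a smooth muscle marker, was 0.071, 1.90 and 7.78 FPKM in the same in vivo iSEP libraries and 0.174 to 0.233 in keratinocytes, and its part in the result was not tested.

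Of 8 BMP targets 6 were tested, with 3 higher and 2 lower in keratinocytes than in ADSCs, and 4 higher and 1 lower in each iSEP group. Atoh8 was at 7.88 ± 0.936 FPKM in ADSCs and 0.0697 or less on average elsewhere (adjusted p = 1.15e-08 to 1.37e-08 in the fit without the filter, which it too passes through ADSCs alone). Gata3 and Msx2, transcription factors that epidermis also uses, went the other way. Gata3 rose from 0.750 ± 0.306 FPKM in ADSCs to 5.14 ± 0.574 in keratinocytes, 6.01 ± 3.90 in in vitro iSEPs and 4.81 ± 3.65 in the in vivo iSEPs (adjusted p = 0.00352, 0.0028 and 0.00927), and Msx2 from 0.455 ± 0.190 to 6.65 ± 0.226, 2.92 ± 1.63 and 4.18 ± 3.37 (adjusted p = 0.000602, 0.0193 and 0.00776). The in vitro call of Msx2 was lost without ADSCs of mouse 1 or 2 or in vitro iSEPs of mouse 1 or 2 (adjusted p = 0.0525 to 0.0762).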

How the data were processed

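RNA of 12 cultures was sequenced, from 3 mice in each of 4 groups. The authors deposited one table of FPKM values. The tools STAR 2.5.1b, FastQC 0.11.5 and HOMER (version not stated) and the build mm10 are named per the submitters' processing notes. Per the file headers, HOMER counted reads in RefSeq exons on the transcript's strand and kept 1 entry per gene. No source used here states whether the kit marks strand. Positions are the deposited table's, in mm10. The table also has 3 columns of values that match no sample given here, and they were not used.

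The deposited FPKM low values are whole multiples of 1 read within 0.15 reads, which gave the depth of 21010000 to 27760000 reads per library. Count models do not apply to FPKM. Genes that reached 1 FPKM in 3 or more libraries (12364) were put on the scale log2(FPKM + 1) and fitted in limma 3.58.1 (R 4.3.3) with 4 group means and a variance trend, tested two-sided, and adjusted by Benjamini-Hochberg over all genes kept. A log2 change on this scale understates the change of low genes. Folds are ratios of mean FPKM, and errors are SD with n = 3. The fit was tested on simulated data. Where nothing says that cultures were independent beyond the mouse, p-values measure the spread between these libraries.

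Libraries with the same number come from the same mouse per the labels. Their deviations from the group means correlated at 0.155 to 0.21 between keratinocytes and ADSCs and at −0.178 to 0.169 in the other comparisons. The fit has no mouse term, and the one with the mouse as a block is given where it changes a call.

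The 45 members and all lists were chosen with earlier results of these data known. By rule, each comparison names up to 4 called members higher and 4 lower by size of change with at least 2 FPKM in the higher group, and the most abundant member of each role in each group. Up to 3 called genes are named per comparison from each further pathway list by the same rule, and those not in the report are among the other observations, apart from some that are not reported here. Values by library of other members were chosen after they were seen. Ccn2 was matched as Ctgf, and Hjv and Cripto were not matched. Alternatives were pseudocounts of 0.1 and 0.5, other filters, other scalings, the block, fits of 2 groups and leaving out each library.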

Additional observations from a re-analysis of the deposited data

How the results depend on the processing

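No member changed direction where it was called, under any alternative run. Of the called members, 22 of 22 in keratinocytes against ADSCs, 22 of 30 in in vitro and 22 of 25 in in vivo iSEPs against ADSCs held in every alternative that tested them. Each of these 22 includes the 5 members that pass the filter through ADSCs alone (Gdf6, Gdf15, Smad6, Bambi and Id4). They are not tested without any 1 ADSC library, so those runs could not lose their calls. Bmp6, in the 22 of both iSEP groups, is not tested without ADSCs of mouse 2 or 3. In in vitro iSEPs against keratinocytes, in vivo iSEPs against keratinocytes and in vivo against in vitro iSEPs, 3 of 8, 2 of 5 and 0 of 1 held. Without a filter on low values, the calls against ADSCs of Tgfb2, Tgfbr2, Acvr1 and Grem1 in in vitro iSEPs were lost. So were those of Tgfbr2, Acvrl1 and Fst in in vivo iSEPs. Gained there against ADSCs, among members that pass the filter, were Smad2 in in vitro iSEPs (0.24 higher, adjusted p = 0.0173) and Smad1 in in vivo iSEPs (0.31 higher, adjusted p = 0.0479). More genes enter both the adjustment and the variance trend of that fit, and the part of either was not tested. In that fit, in vitro iSEPs against keratinocytes had 1 member higher and 3 lower. There in vivo iSEPs against keratinocytes had 1 higher, and in vivo against in vitro iSEPs 0 lower. In vivo against in vitro iSEPs also had 0 lower with the replicate block (the mouse number as a term) and 0 lower with only those groups fitted. Quantile normalization gave 1 higher there, Id2. The block changed the calls named beside the results and no other. With 0 calls, Tgfbr3 had an adjusted p in limma of 0.112, 0.0671 and 0.199 in these alternatives (unfiltered, block, 2 groups), and at an unadjusted p below 0.05 each of them had 3 members lower.

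Leaving out 1 library at a time, the members called ranged from 3 to 3 higher and 14 to 19 lower in keratinocytes against ADSCs, 4 to 5 higher and 15 to 23 lower in in vitro iSEPs against ADSCs, and 2 to 5 higher and 14 to 22 lower in in vivo iSEPs against ADSCs. Against keratinocytes the ranges were 1 to 3 higher and 2 to 4 lower in in vitro iSEPs, and 1 to 5 higher and 1 to 8 lower in in vivo iSEPs. Between iSEP groups they were 0 to 1 higher and 0 to 3 lower. Over all genes tested, the same runs called 3240 to 3641 higher and 1755 to 2359 lower in keratinocytes against ADSCs. In in vitro iSEPs against ADSCs they called 3298 to 3748 and 1884 to 2583, and in in vivo iSEPs 2776 to 3744 and 1631 to 2540. Against keratinocytes all-gene calls were 222 to 567 and 225 to 651 in vitro, and 174 to 660 and 140 to 1035 in vivo. Between iSEP groups these were 19 to 202 and 34 to 254. Where a call was lost without a library, the cause was not tested. Low members rest on few reads, and 3 libraries per group limit the precision.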

Other observations

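Against keratinocytes, 5.22% of all genes tested were higher and 6.12% lower in in vitro iSEPs, and 3.41% and 4.08% in the in vivo iSEPs. Storage and activation genes had 2 higher and 1 lower of 11 tested in in vitro iSEPs against keratinocytes, and 1 and 2 in the in vivo iSEPs. Ltbp4, of the latent TGF-beta binding protein family, was at 7.94 ± 2.46 FPKM in in vitro iSEPs, 9.14 ± 2.33 in the in vivo iSEPs and 3.28 ± 0.360 in keratinocytes (adjusted p = 0.0429 and 0.0273). Fbn1 was higher in in vitro iSEPs than in keratinocytes (1.21, adjusted p = 0.0489). Lower in in vivo iSEPs than in keratinocytes were Itgb6 (−1.77, adjusted p = 0.0337) and Itgb8 (−1.32, adjusted p = 0.0367). These 5 calls were lost without keratinocytes of mouse 1, 2 or 3 in turn, without in vivo iSEPs of mouse 2 and, for Itgb6 and Itgb8, mouse 1, without in vitro iSEPs of mouse 1 or 2 for Ltbp4, and of mouse 2 or 3 for Fbn1 (adjusted p = 0.0543 to 0.147). With the mouse as a block Ltbp4 in vitro (adjusted p = 0.0571) and Itgb8 (adjusted p = 0.0528) were lost.

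Bmp3 was the further ligand that separated the iSEP groups, lower in vivo than in vitro (−2.70, adjusted p = 0.0417) and higher in vitro than in keratinocytes (2.0, adjusted p = 0.0423). The first call was lost with the mouse as a block (adjusted p = 0.0571) and without in vitro iSEPs of mouse 3 or any in vivo library (adjusted p = 0.0586 to 0.155), the second without in vitro iSEPs of mouse 1 or 3 or any keratinocyte library (adjusted p = 0.0652 to 0.142). Its rise in keratinocytes over ADSCs (1.56, adjusted p = 0.0349) was lost without any of the 6 libraries (adjusted p = 0.0551 to 0.116). Bmp8a was higher in both iSEP groups than in keratinocytes (1.09, adjusted p = 0.012, and 0.92, adjusted p = 0.0323). The in vitro call was lost without keratinocytes of mouse 2 or 3 (adjusted p = 0.0625 and 0.057). The in vivo call was lost with the block (adjusted p = 0.0544) and without in vivo iSEPs or keratinocytes of mouse 2 or 3 (adjusted p = 0.0589 to 0.145). Neo1 (neogenin), a co-receptor for BMPs, fell from 28.5 ± 1.18 FPKM in ADSCs to 6.82 ± 0.661 in in vitro iSEPs, 8.47 ± 1.27 in the in vivo iSEPs and 9.63 ± 0.0731 in keratinocytes (adjusted p = 1.73e-07, 6.22e-07 and 1.41e-06). Its call in in vitro iSEPs against keratinocytes (−0.45, adjusted p = 0.0347) was lost without any of the 6 libraries (adjusted p = 0.0524 to 0.118).

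Among target genes, Tagln, a smooth muscle protein, measured 1180, 1920 and 2230 FPKM in ADSCs, 22.3, 50.3 and 20.8 in in vitro iSEPs, 74.7, 478 and 848 in the in vivo iSEPs, and 31.2, 25.0 and 38.7 in keratinocytes. All in vivo iSEP libraries lay above all other epithelial libraries. The smooth muscle marker Myh11 was 0.071, 1.90 and 7.78 FPKM in the in vivo iSEPs, and its part in the result was not tested. In vivo iSEPs were higher than keratinocytes (3.29, adjusted p = 0.019) and in vitro iSEPs (3.40, adjusted p = 0.0435). The first call was lost without in vivo iSEPs of mouse 2 or any keratinocyte library (adjusted p = 0.0584 to 0.0885), the second without in vitro iSEPs of mouse 1 or 3 or in vivo iSEPs of mouse 2 or 3 (adjusted p = 0.0614 to 0.176). Col1a1 was higher in in vitro iSEPs than in keratinocytes (1.87, adjusted p = 0.0234) and in vivo iSEPs (in vivo minus in vitro −2.10, adjusted p = 0.0468, 0.065 with the block). These calls were lost without in vitro iSEPs of mouse 2 or 3 or any keratinocyte library (adjusted p = 0.0583 to 0.0867), and without in vitro iSEPs of mouse 2 or 3 or in vivo iSEPs of mouse 1 or 2 (adjusted p = 0.0811 to 0.181). Fn1 (fibronectin) was 39.7, 75.9 and 1040 FPKM in in vivo iSEPs, where the library of mouse 3 again stood apart, and 1650 to 2560 in ADSCs (−3.76, adjusted p = 0.00479).

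Of the remaining genes named by the rule, Smurf1, a ubiquitin ligase for Smads, was higher than in ADSCs in keratinocytes (0.85, adjusted p = 0.00713) and in in vivo iSEPs (0.61, adjusted p = 0.0416). The latter call was lost without ADSCs of mouse 1 or 2 or in vivo iSEPs of mouse 2 or 3 (adjusted p = 0.0592 to 0.154). Skil, a Smad corepressor, was lower in in vitro iSEPs than in ADSCs (−0.71, adjusted p = 0.0127, or 0.0546 without in vitro iSEPs of mouse 3) and keratinocytes (−0.74, adjusted p = 0.0429). The second call was lost with the block (adjusted p = 0.072) and without in vitro iSEPs of mouse 2 or 3 or any keratinocyte library (adjusted p = 0.0849 to 0.147). Nbl1, a BMP antagonist, was lower in in vitro iSEPs than in ADSCs (−0.97, adjusted p = 0.0357), a call lost with the block (adjusted p = 0.0581) and without any ADSC library or in vitro iSEPs of mouse 2 or 3 (adjusted p = 0.0606 to 0.131).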
